A study of Sus scrofa with 12 samples.

Results

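Chromatin loops that spanned 500 kb or more were examined in longissimus muscle of piglets. The members were the H3K27ac loops whose anchor starts lay at least 500 kb apart in the deposited loop lists. They numbered 3206 distinct loops of 122406 distinct loops in all. The samples were longissimus muscle of 2-week-old male piglets of 2 breeds, Large White (LW), a commercial lean breed, and Meishan (MS), a Chinese local breed. No genetic change or treatment was applied, and each breed was profiled with 2 BL-HiChIP libraries against H3K27ac and 2 GRID-seq libraries. Nothing in the labels says whether the replicates of a breed came from different animals, so the spread between them may be technical. BL-HiChIP ligates neighbouring DNA fragments to each other by way of a bridge linker and enriches them with an antibody against H3K27ac, a mark of active promoters and enhancers. GRID-seq links an RNA to the DNA it lies on.

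Looping brings a distal enhancer to a promoter while the DNA between them is passed over. Contacts between loci become rarer as their distance grows, and long loops are known from genes of developmental transcription factors, which often lie in wide gene-poor intervals filled with enhancers. RNA that is still attached to its gene during transcription can be captured on chromatin that lies near that gene in space.

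Values of the 4 libraries are given throughout with both replicates of LW first, numbered 1 and 2, then both of MS. The long loops numbered 1230, 1163, 1150 and 826. The lists from which they came held 57028, 43282, 45061 and 33353 loops. The long loops thus made up 2.16% (95% Wilson interval 2.04 to 2.28) and 2.69% (2.54 to 2.84) of the LW lists. They made up 2.55% (2.41 to 2.70) and 2.48% (2.32 to 2.65) of the MS lists. These intervals cover counting error only. The replicate 1 library of each breed kept more valid read pairs, per the study's library information, and gave the longer list.

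The breeds could not be told apart by the number or by the share of long loops. The mean number was 1196.5 ± 47.4 in LW and 988 ± 229 in MS (SD, n = 2 each). The difference of 208.5 loops had a p of 0.33 in an exact two-sided permutation test, the smallest p that 2 against 2 libraries can give. It was 46.5 without MS replicate 2 and 370.5 without MS replicate 1. The mean share was 2.42% ± 0.375 in LW and 2.51% ± 0.0534 in MS, with an exact permutation p of 1. LW replicate 1 had the lowest share and LW replicate 2 the highest, so the MS libraries lay inside the LW range.

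**Figure D1:**
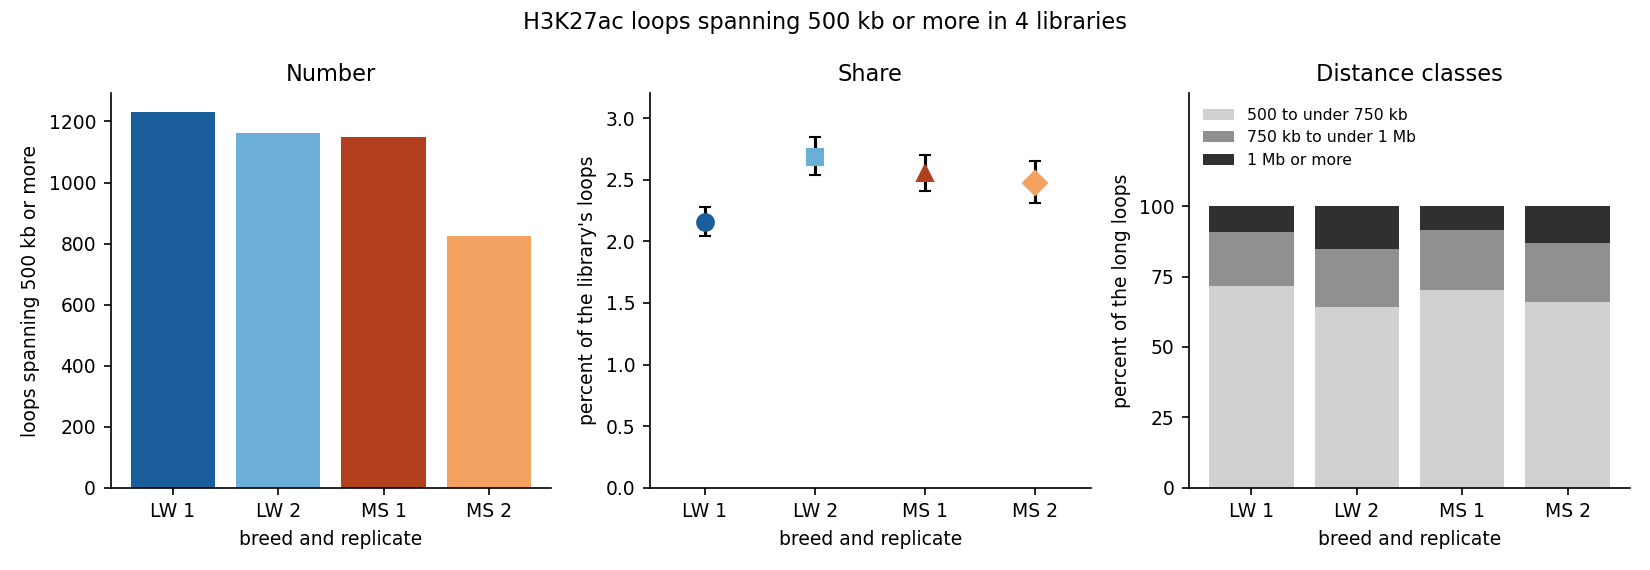
The left plot gives the number of loops spanning 500 kb or more in each library, the middle plot their percent of all loops of the library with 95% Wilson intervals, and the right plot the distance classes in percent of the long loops. The number was lowest in MS replicate 2 (826), while LW replicate 1 had the lowest share (2.16%).

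Most long loops were close to the lower limit. The median distance was 630, 655, 640 and 655 kb. The longest loops reached 1965, 1980, 1965 and 1985 kb, just under the limit of 2 Mb at which the authors stopped calling loops. Loops of 1 Mb or more numbered 111, 176, 99 and 107, which was 9.02%, 15.1%, 8.61% and 13.0% of the long loops. The replicates numbered 2 had the higher share of these very long loops in both breeds. At the limit itself, loops of exactly 500 kb numbered 22, 29, 34 and 16, with median strengths of 4.50, 3.35, 3.00 and 3.65. Loops of 495 kb, just outside, numbered 47, 27, 27 and 18, with median strengths of 3.57, 3.38, 3.40 and 3.51. The strength of a loop is the −log10 of the false discovery rate (FDR) deposited for it, and the lists ended at an FDR of 0.01, a strength of 2.

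Of the 3206 long loops, 75 were called with both 5-kb anchors in all 4 libraries. The strongest of them joined an anchor inside BCL6 (chr13:125395001-125400000, Sscrofa11.1) to an anchor at the end of TPRG1 (chr13:126530001-126535000). BCL6 encodes a zinc finger repressor of transcription, and the gene LPP, which codes for an actin-associated protein of focal adhesions, lies between the anchors. The distance was 1135 kb. The strengths were 113 and 229 for LW and 112 and 216 for MS. The libraries ordered by replicate number and not by breed, both numbered 2 lying above both numbered 1.

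The loop ranked next ended at QKI, which encodes an RNA-binding protein that directs splicing in muscle. It ran over 635 kb from chr1:4245001-4250000, where no gene was annotated, to chr1:4880001-4885000. Its strengths were 75.3, 106, 56.5 and 105. No protein-coding gene lay wholly between its anchors. A further loop of 500 kb into QKI, from chr1:4380001-4385000, had strengths of 32.3, 31.1, 30.1 and 19.9, so its MS replicate 2 value was the lowest of the 4.

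NR4A3, an orphan nuclear receptor gene induced by exercise in muscle, was the end of the next loop. The partner lay 545 kb away at chr1:241020001-241025000, outside any annotated gene, and the anchor at NR4A3 was chr1:241565001-241570000. Strengths were 59.4, 194, 40.5 and 235, again higher in both libraries numbered 2.

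ZFP36L1, whose product binds AU-rich elements and speeds mRNA decay, was joined to an anchor inside RAD51B, a gene of DNA repair. That loop ran over 530 kb from chr7:91960001-91965000 to chr7:92490001-92495000. Its strengths were 68.6, 46.3, 35.5 and 33.7, with both LW libraries above both MS libraries. The same RAD51B anchor was joined over 555 kb to LOC100513604, a long non-coding RNA gene beyond ZFP36L1, at strengths of 49.5, 36.3, 46.0 and 38.1. For this loop the breeds overlapped.

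JUN, a subunit of the AP-1 transcription factor, was joined to an anchor inside FGGY, a carbohydrate kinase gene, over 855 kb (chr6:152830001-152835000 to chr6:153685001-153690000). Strengths were 22.0, 91.6, 29.5 and 74.3. Further loops from the FGGY anchor ended short of JUN at 510, 675 and 735 kb, and all of them were called in the 4 libraries.

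**Figure D2:**
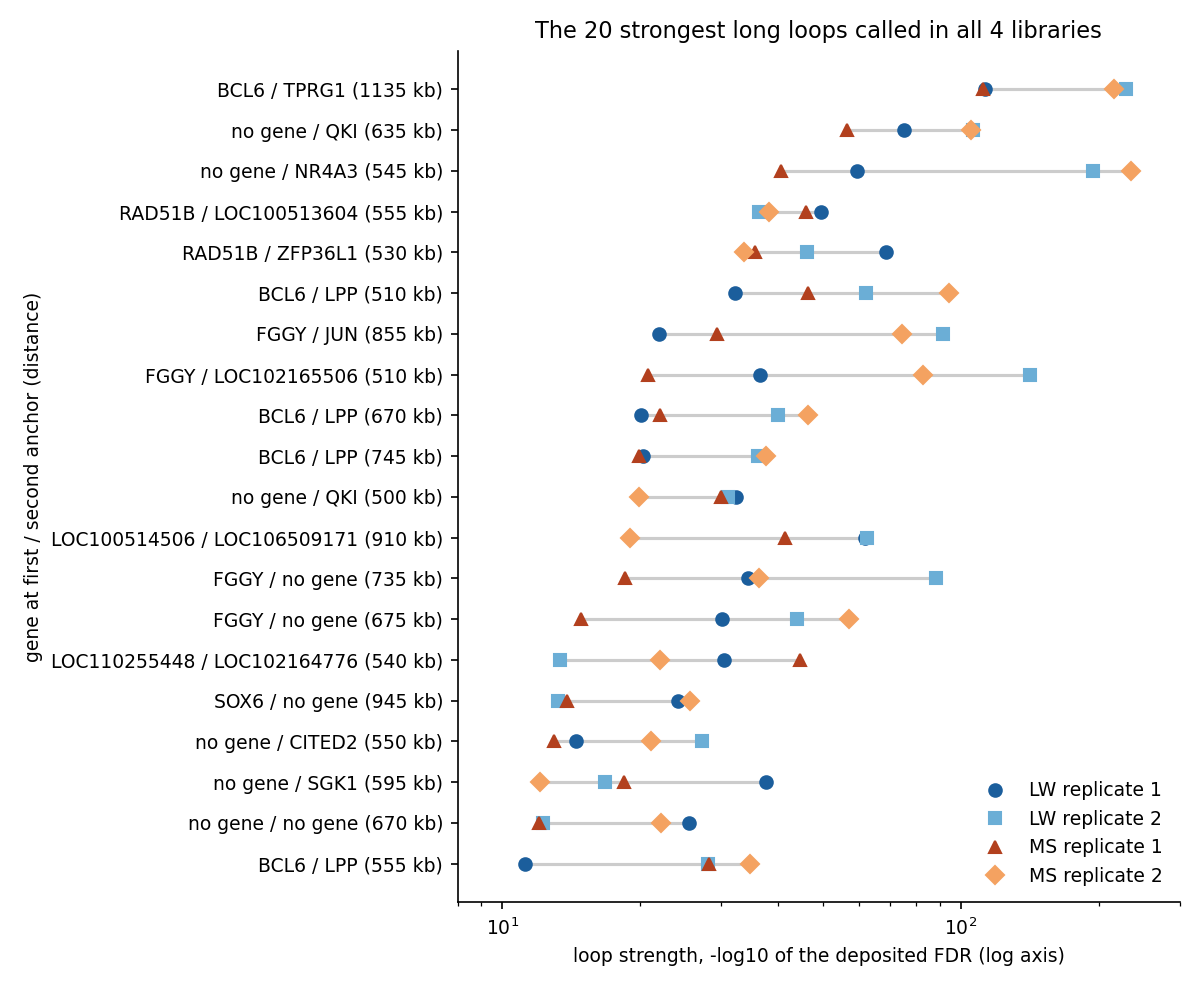
The 20 long loops called in all 4 libraries with the highest lowest strength are listed with a gene at each anchor and the distance, and each library's strength (−log10 of the deposited FDR) is on a log axis. The loop from BCL6 to TPRG1 lay highest in its weakest library (112), and the replicates numbered 2 were often on the right.

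Among the other loops of the first 20, one from an anchor inside SOX6, a transcription factor gene known for repressing slow fibre genes, ran 945 kb to chr2:43395001-43400000. Its strengths were 24.2, 13.3, 13.8 and 25.7. CITED2, a co-regulator that binds p300, was the end of a loop of 550 kb with strengths of 14.5, 27.3, 13.0 and 21.1. An anchor inside SGK1, a kinase gene of the insulin and glucocorticoid response, ended a loop of 595 kb at 37.6, 16.7, 18.5 and 12.1. In the interval that holds NFIB, a nuclear factor I gene, a loop of 910 kb from chr1:208145001-208150000 to chr1:209055001-209060000 had strengths of 61.9, 62.5, 41.4 and 19. Both LW libraries were above both MS libraries for this loop.

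Over the 75 loops, both LW libraries were above both MS libraries for 16, against a background of 22.8% over all loops called in the 4 libraries. Both MS libraries were above both LW libraries for 5, against a background of 9.39%. As shares of the 75 these were 21.3% and 6.67%, near those backgrounds. The libraries numbered 2 were both above those numbered 1 for 30 of the 75 loops, 40.0%, and for 35.5% of all loops called in the 4 libraries. Of the 75 loops, 41 had the end of a gene within 1 kb of at least 1 anchor and 9 had one at both.

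The 5 longest of these 75 loops reached from 1075 to 1465 kb. The longest began at ADAMTS1, which encodes a secreted protease of the matrix, and ended 1465 kb away at chr13:191750001-191755000, where no gene was annotated. Its strengths were 11.4, 6.27, 7.13 and 8.45. The next, of 1345 kb, left from inside PLPP3, a lipid phosphate phosphatase gene, with strengths of 6.96, 8.90, 3.23 and 5.04. A loop of 1235 kb joined PACSIN3, which codes for a membrane-shaping protein of muscle, to the clock gene CRY2, passing over 19 protein-coding genes. Its strengths were 2.44, 11.6, 3.77 and 4.70, the lowest being that of LW replicate 1. The loop from BCL6 to TPRG1 followed at 1135 kb. A loop of 1075 kb joined HOXD8, a body-patterning gene, to an anchor inside NFE2L2, a regulator of the oxidative stress response, at strengths of 7.68, 8.62, 2.29 and 4.77.

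Most anchors of long loops had 1 long loop, and a small part of them had many. Of 3458 anchors of long loops, 2366 (68.4%) had 1 long loop, 201 had 5 or more and 55 had 10 or more. The 10 anchors with the most long loops took part in 306 of the 3206 loops, 9.54%. The end of a gene lay within 1 kb of 28.9% of all long-loop anchors and of 42.3% of those with 5 or more long loops.

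The anchor inside BCL6 had 73 distinct long loops, the highest number, and all 73 partners lay on the side of LPP and TPRG1. The libraries held 32, 32, 31 and 35 of them. Distinct loops, here and below, were counted by exact bins, so partners in touching bins of different lists counted apart. The partner at 605 kb, for one, was called in LW replicate 2 and MS replicate 1, and that at 610 kb in LW replicate 1 and MS replicate 2. The partners lay between 510 and 1715 kb away, and 6 of the loops were called in all 4 libraries. The partners inside LPP at 510, 555, 670, 700 and 745 kb were among these 6. The loop of 670 kb had strengths of 20.04, 39.98, 22.1 and 46.5. At 570 kb a loop had strengths of 105 and 241 for LW and 196 for MS replicate 2. It was not listed in MS replicate 1, whose list held instead a loop from the neighbouring bin of BCL6 to the same partner.

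**Figure D3:**
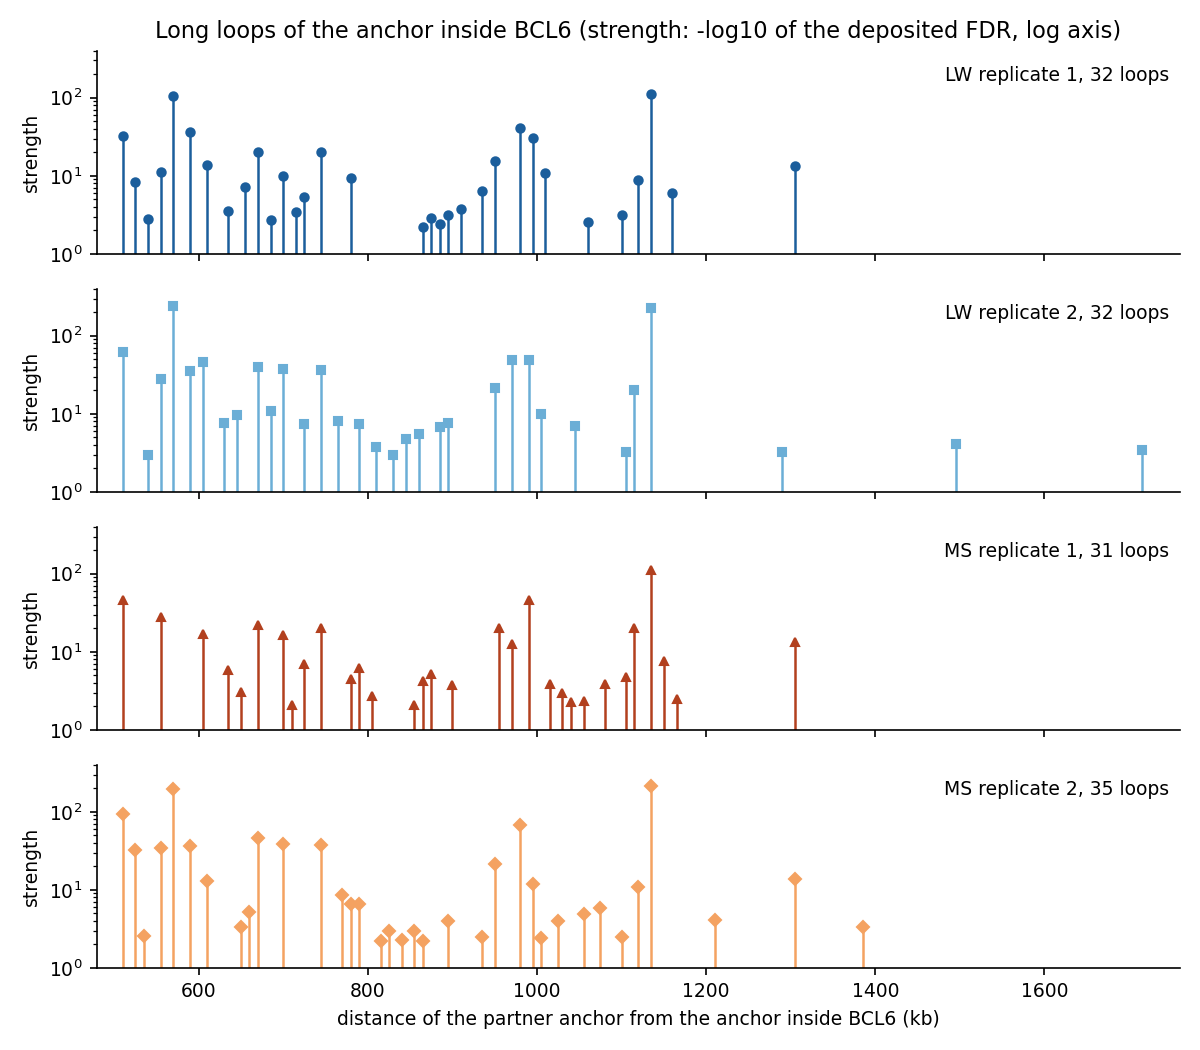
Each stem is a long loop of the anchor inside BCL6, placed by the distance of its partner in kb, with its strength (−log10 of the deposited FDR) on a log axis, 1 panel for each library. Each library held 31 to 35 loops, and the partner at 1135 kb, at TPRG1, was among the strongest in all 4 panels.

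Other anchors with many long loops lay in or at protein-coding genes, at non-coding genes or outside any gene. The anchor inside SOX6 (chr2:42450001-42455000) had 31, the anchor at JUN 29, the anchor at TPRG1 28 and the anchor at CITED2 26. An anchor at LOC100513604 had 26, the intergenic partner of QKI 25, and an anchor over LOC100514506, a non-coding gene beside NFIB, also 25. The anchor at MAF, a large transcription factor of the AP-1 superfamily, had 23, with 8, 14, 6 and 5 in the 4 libraries. CITED2 was likewise uneven, with 7, 18, 5 and 11 long loops, the larger number being in the replicate numbered 2 in both breeds. The loops of 1 anchor share that anchor and are not independent of each other.

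Counted by gene over all bins at its ends, TPRG1 led with 49 distinct long loops (18, 22, 20 and 17 in the libraries). JUN followed with 29, then CITED2 with 26, LOC100513604 with 26, MAF and its neighbour LOC106510467 with 23 each, and ZFP36L1 with 22. NFIB had 21 at its end (5, 13, 3 and 11), so each library numbered 2 had more than either library numbered 1. The touching bin, chr1:208175001-208180000, had the opposite order, with 9, 1, 9 and 1. The sum of strengths at TPRG1 was 199, 372, 256 and 398, with overlapping breeds.

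When anchors in the same or touching bins were joined, a grouping chosen after the data were seen, the long loops formed 589 networks. Of these, 304 were single loops, and the 82 networks with 10 or more loops held 65.2% of all long loops. The largest, at BCL6, LPP and TPRG1, spanned chr13:125375001-127405000 and held 188 loops, with 73, 70, 76 and 60 in the libraries. The NFIB interval (chr1:208060001-209365000) held 139 loops (67, 40, 58 and 33). The intervals of ZFP36L1, JUN, QKI and PIK3R1 followed with 77, 75, 62 and 57 loops. The network ranked seventh, with 53 loops, lay over a dense run of histone and tRNA genes (chr7:20715001-21635000), where copies of near-identical sequence make the placing of reads uncertain.

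By gene group, the share of genes with a long loop was 35.4% for developmental transcription factors, 26.3% for glycolysis and glycogen metabolism, 15.4% for myogenic regulators and 13.2% for the sarcomere. Of 19533 protein-coding genes with a position, 957 had the end of a long loop within 1 kb of a gene end in at least 1 library, a background of 4.9%. Of 82 developmental transcription factors, 29 (35.4%) did, and 22 of the 82 (26.8%) had one in 2 or more libraries, against 443 (2.27%) of all protein-coding genes. A loop of any length was found for 12247 of the protein-coding genes, and 7.81% of these looped genes had a long loop. Among looped genes, the share was 8.70% for calcium handling and excitation, near that value. It was lower for cytosolic ribosomal proteins (7.04%) and proteasome subunits (3.23%). Looped developmental transcription factors (46.8%), glycolysis and glycogen genes (26.3%) and sarcomere genes (13.2%) stayed above it. The differences between groups were not tested. Among the developmental transcription factors with a long loop were MAF, NFIB, MEIS1 with 16 distinct long loops, NR2F2 and RUNX1T1 with 8 each, and FOXP1 with 5. RUNX1T1 had 4, 6, 3 and 2 of its loops in the 4 libraries, and FOXP1 had 2 in each. EBF3 had 2 long loops in each LW library and OSR1 had 2 in LW replicate 1, and neither had one in the MS lists. BCL6 itself had 15 at its gene ends (5, 5, 6 and 1), apart from those of the anchor inside the gene. Some loops of neighbouring genes in this group, such as IRX3 and IRX5, were the same loop.

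Of 26 myogenic regulators, 4 had a long loop, among them FST, MEF2C and MYF6. FST encodes follistatin, which binds myostatin, and its loop of 650 kb into ARL15 had strengths of 13.6, 22.4, 12.2 and 5.25. MEF2C had 3 long loops at its gene ends, of 705 to 735 kb, in LW replicate 2 alone. Apart from these, an anchor inside MEF2C was joined over 635 kb to an unannotated bin. That loop had the low strengths of 3.02, 3.69, 2.88 and 4.62. MYF6 had 1 long loop, in MS replicate 2 alone.

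Of 38 sarcomere genes, 5 (13.2%) had a long loop (ACTN3, DES, MYLPF, TNNC2 and TPM2), although all 38 had a loop of some length. Of 23 genes of calcium handling and excitation, ATP2A1 and CASQ2 (8.70%) had one. MYLPF, the regulatory light chain of fast fibres, and ATP2A1, the calcium pump of fast fibres, were the ends of the same loop of 605 kb (chr3:17940001-17945000 to chr3:18545001-18550000). That loop passed over 42 protein-coding genes, and its strengths were 2.20, 12.9, 3.44 and 6.04. The remaining loops of both groups were called in 1 library, apart from those of DES and TPM2, which were called in LW replicate 2 and MS replicate 2. Of 19 genes of glycolysis and glycogen metabolism, 5 (26.3%) had a long loop (ENO3, FBP2, PHKA1, PRKAG3 and PYGM), and FBP2 had one in more than 1 library.

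Extracellular matrix genes had long loops for 3 of 23 (COL3A1, COL5A2 and THBS1), cytosolic ribosomal proteins for 5 of 79 (6.33%) and proteasome subunits for 1 of 37, PSMB1. Of the 10 markers of skeletal muscle, all had a loop and none had a long one. The listed RNAs of GRID-seq held 6 of these 10 markers in every library and none of the markers of satellite cells, adipocytes, endothelium, immune cells, Schwann cells or smooth muscle. Of the 5 markers of fibroblasts and mesenchymal progenitors, 1 or 2 were listed in each library. PRRX1 and COL3A1 of that list and ACTA2 of the smooth muscle list had long loops.

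Long loops were weaker than the whole of the shorter loops but not than those just under the limit. The median strength of long loops was 3.41, 3.62, 3.17 and 3.73. For all shorter loops it was 3.88, 4.26, 3.66 and 4.34. The mean difference was −0.55 ± 0.088 (SD, n = 4), lower in 4 of 4 libraries, with p = 0.13 by an exact two-sided sign-flip permutation test over the libraries, the smallest p that 4 libraries can give. Against loops of 100 to under 500 kb, the difference was −0.24 ± 0.089, again lower in 4 of 4 libraries with the same exact p of 0.13. Against loops of 400 to under 500 kb, a comparison added after the data were seen, the medians of which were 3.32, 3.65, 3.33 and 3.59, the difference was 0.00672 ± 0.134 and long loops were higher in 2 of 4 libraries (exact sign-flip permutation p = 1). Long loops with an FDR of at most 0.001 made up 61.9%, 64.5%, 54.8% and 65.0% of the long loops of each library.

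Long loops were called again in another library less often than the whole of the shorter loops, but not than loops just under the limit. With both bins required to be the same, 40.5%, 47.0%, 39.8% and 56.5% of the long loops were found in at least 1 other library. For shorter loops the shares were 43.6%, 58.6%, 49.2% and 66.1%. The mean difference was −8.42 ± 3.69 percentage points (SD, n = 4), lower in 4 of 4 libraries with an exact sign-flip permutation p of 0.13, the smallest possible. Against loops of 100 to under 500 kb, it was −3.22 ± 4.98 points with an exact permutation p of 0.375, since LW replicate 1 went the other way (40.5% against 36.7%). Loops of 400 to under 500 kb were shared for 36.5%, 49.4%, 40.3% and 54.8%. Against them the difference was 0.708 ± 2.78 points, with long loops higher in 2 of 4 libraries and an exact permutation p of 0.75, in a comparison added after the data were seen.

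No library held 2 loops in touching bin pairs, so each list kept 1 loop of any such cluster, and the kept bin could differ between libraries. With 1 bin of tolerance at each anchor, the shared part of the long loops rose to 63.1%, 63.7%, 65.3% and 74.3%, and that of shorter loops to 68.3%, 81.2%, 76.1% and 87.4%. The mean difference of −11.6 points again had an exact permutation p of 0.13. Long loops found in all 4 libraries then numbered 473 of 3206 (14.8%) in place of 75 (2.34%), against 21.3% and 3.82% of shorter loops.

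The deficit against all shorter loops was not seen in the strongest loops. Of long loops with a strength of 2 to 4, 27%, 28.9%, 26.7% and 41.3% were found in another library, against 28.5%, 42.2%, 36.1% and 52.2% of shorter loops. Of those above a strength of 10, numbering 106, 146, 90 and 116, the shares were 81.1%, 89.7%, 90% and 94.8% for long loops and 78.0%, 86.0%, 80.7% and 87.3% for shorter loops. In this strongest class long loops were above shorter ones in 4 of 4 libraries by 5.89 points on average (exact sign-flip permutation p = 0.13). This split by strength was chosen after the data were seen.

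Between single libraries, the largest overlap of exact bins was between the replicates numbered 2 of the different breeds, which shared 322 long loops, 27.7% of LW replicate 2 and 39.0% of MS replicate 2. The LW replicates shared 293 (23.8% and 25.2%), and the MS replicates 223 (19.4% and 27%). The replicates numbered 1 shared 269 (21.9% and 23.4%). With 1 bin of tolerance the order by number changed. The replicates numbered 1 then shared most, 567 of the long loops of LW replicate 1 (46.1%, and 50.2% of MS replicate 1). The LW replicates followed with 508 (41.3% and 44.4%) and the replicates numbered 2 with 497 (42.7% and 60.3%). The lists differed in length, so numbers and shares do not order the pairs alike. With either rule the pair that shared the largest number was of different breeds.

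Some long loops were found with both LW replicates and with neither MS replicate, and these numbered 105, while 55 had the reverse pattern. At an FDR of at most 0.001 the numbers were 65 and 41. When a loop within 1 bin at each anchor counted as called in a library, they were 153 and 57. The 105 and 55 loops were 3.28% (95% Wilson interval 2.71 to 3.95, counting error only) and 1.72% (1.32 to 2.23) of the 3206 long loops. The backgrounds over all loops were 4.39% and 2.37%, so neither class was a larger part of the long loops than of all loops. Of the 105 loops of LW, 42 had a loop of an MS library within 1 bin at each anchor, and 56 within 2 bins. Of the 55 loops of MS, 34 and 41 had such a loop in an LW library.

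Most of the strongest loops of this kind lay close to a loop of the other breed. In LW, a loop of 670 kb into ZFHX4, a zinc finger homeobox gene, had strengths of 23.9 and 29.4, one of 530 kb from inside PIK3R1, the regulatory subunit of PI3 kinase, 17.7 and 32.0, and one of 635 kb from LPP to TPRG1 16.1 and 15.1. In MS, the strongest was a loop of 640 kb from the same LPP anchor to the next bin at TPRG1, with 30.6 and 50.1, followed by a loop of 1095 kb from HOXA9, with 32.0 and 25.6, and one of 640 kb from FOSL2, a Fos-related AP-1 subunit, with 24.8 and 29.7. Each of these 6 had a loop of the other breed within 1 bin. Of the 5 strongest in LW, the one inside SOX6 over 510 kb (14.3 and 21.8) had none within 1 bin but had one within 2 bins.

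Long loops were spread unevenly over the chromosomes. Chromosome 1 held 573 of the 3206 and chromosome 13 held 429, together with chromosome 7 (249) and chromosome 2 (229) the 4 highest numbers. On chromosome 1, 4.08% to 5.30% of the loops of a library were long, and on chromosome 13, 3.46% to 4.51%. Chromosome 12, the densest in genes with 18.2 protein-coding genes per Mb, had the lowest share of the autosomes, 0.453% to 0.696%, and chromosome X had 0.444% to 0.963%. Every library of chromosomes 1 and 13 was thus above every library of chromosome 12 and X.

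**Figure D4:**
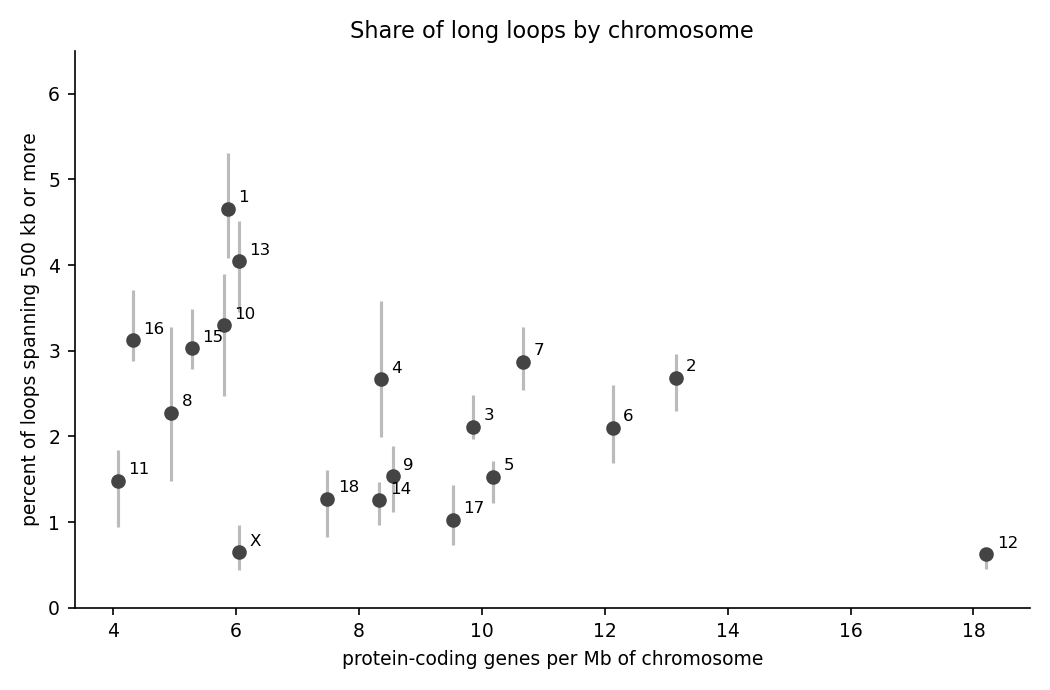
Points give the mean percent of loops that spanned 500 kb or more over the 4 libraries, with lines from the lowest to the highest library, against protein-coding genes per Mb for each chromosome except Y. Chromosomes 1 and 13 lay highest, and chromosome 12, with 18.2 protein-coding genes per Mb, lowest of the autosomes.

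Across the 18 autosomes the mean share of long loops fell with the density of protein-coding genes, with Pearson's r = −0.47 and Spearman's rho = −0.37. Without the 2 chromosomes farthest from the median density, r was −0.39. In the single libraries r lay between −0.46 and −0.42. The share also rose with chromosome length (r = 0.68, rho = 0.50, and 0.31 without the 2 farthest chromosomes). Chromosomes are no replicates, and these values are a description.

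The genes passed over depended on how they were counted. The median number of genes of any kind wholly between the anchors of a long loop was 3 in LW replicate 1 and 4 in the other libraries, and the median of protein-coding genes was 1 in each. No protein-coding gene lay between the anchors of 39.0%, 38.5%, 39.7% and 37.8% of long loops. The median density of all genes was 4.96, 5.37, 5.47 and 5.88 per Mb for long loops and 5.88, 5.97, 6.25 and 6.25 per Mb for loops of 100 to under 500 kb. The mean difference was −0.669 ± 0.240 genes per Mb (SD, n = 4), lower in 4 of 4 libraries with an exact sign-flip permutation p of 0.13. Against loops of 400 to under 500 kb, added after the data were seen, it was −0.814 ± 0.479, lower in 4 of 4 libraries with the same exact permutation p. For protein-coding genes alone the median was 1.42 to 1.55 per Mb for long loops and 0 for the loops compared, of which 60.2% to 62.4% had no whole protein-coding gene between their anchors. When all genes were divided by the summed length between anchors, long loops were the denser group in 4 of 4 libraries, by 0.0577 to 2.36 genes per Mb. Protein-coding genes over summed length did not follow this. Loops of 100 to under 200 kb had 5.82, 5.59, 6.52 and 5.92 per Mb, above every distance class of long loops in each library. Against loops of 400 to under 500 kb, both classes from 600 kb to under 1 Mb were higher in 4 of 4 libraries. Loops of 1 Mb or more were lower in 4 of 4. Summed counts give weight to gene-dense clusters. The network over histone and tRNA genes on chromosome 7 held 18, 18, 33 and 12 long loops. A loop of 760 kb in it, called in both MS libraries, passed over 150 genes, 40 of them protein-coding. The part of this network in the values over summed length was not tested. Loops over 10 or more protein-coding genes made up 3.41%, 6.96%, 5.30% and 7.02% of long loops.

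**Figure D5:**
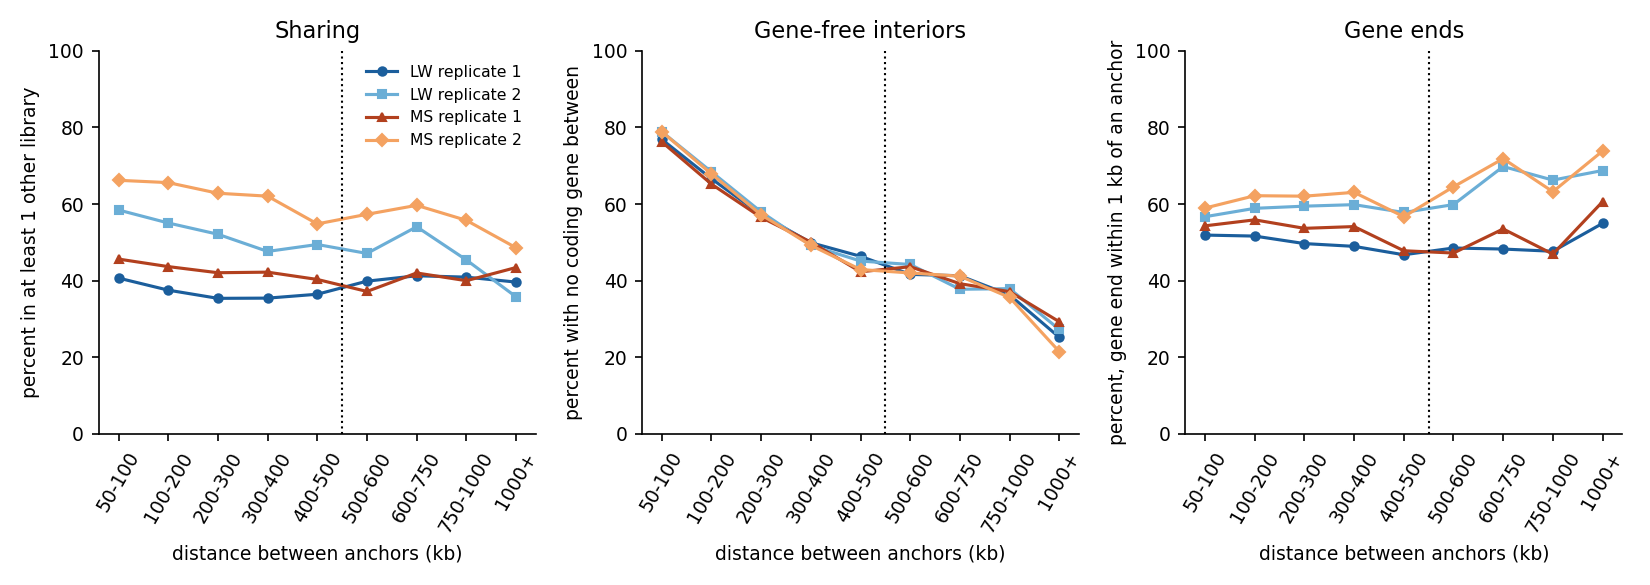
For each distance class in kb, the left plot gives the percent of loops called in at least 1 other library, the middle plot the percent with no protein-coding gene wholly between the anchors, and the right plot the percent with a gene end within 1 kb of an anchor; the dotted line marks 500 kb. In the right plot the libraries numbered 2 lay above those numbered 1 in each distance class shown.

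Whether gene ends at the anchors were more frequent for long loops depended on the loops compared. A gene end lay within 1 kb of at least 1 anchor for 48.9%, 65.3%, 50.3% and 67.6% of long loops. For loops of 100 to under 500 kb the shares were 50.6%, 59.1%, 54.7% and 61.9%. Long loops were higher in both libraries numbered 2 and lower in both numbered 1, and the mean difference of 1.44 ± 5.35 points had an exact sign-flip permutation p of 0.625. Without LW replicate 2 the difference was −0.173 points, and without MS replicate 2 it was 0.039. Against loops of 400 to under 500 kb, added after the data were seen, with 46.8%, 57.8%, 47.8% and 56.7%, long loops were higher in 4 of 4 libraries by 5.73 ± 4.22 points (exact permutation p = 0.13). Gene ends at both anchors were found for 9.35%, 16.5%, 11% and 17.7% of long loops, with the same split between replicate numbers. The number of valid read pairs moves with the replicate number, and its part in this was not tested. Of loops of 1 Mb or more, 55.0%, 68.8%, 60.6% and 73.8% had a gene end at an anchor.

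Chromatin-associated RNAs were listed on long-loop anchors more often than on anchors used by shorter loops alone, by less against anchors of loops just under the limit. Anchors used by both kinds of loop counted as long-loop anchors. Anchors with many loops could thus fall in that class, such as the anchor inside BCL6 with 73 long loops of 90. The part of this rule in the difference was not tested. An RNA was listed on 47.1% and 60.8% of 2526 LW long-loop anchors in GRID-seq replicates 1 and 2, and on 64.8% and 72.4% of 2104 MS anchors. Anchors used by shorter loops alone had 41.2%, 53.7%, 58.0% and 66.7%. The mean difference was 6.38 ± 0.708 points (SD, n = 4), higher in 4 of 4 libraries, with an exact sign-flip permutation p of 0.13. Against anchors of loops of 400 to under 500 kb, added after the data were seen, it was 2.11 ± 2.21 points, higher in 3 of 4 libraries with an exact permutation p of 0.25. The anchors compared there had no long loop, but could also have loops under 400 kb. For RNAs of the anchor's own chromosome, against anchors used by shorter loops alone, it was 9.88 ± 0.905 points (exact sign-flip permutation p = 0.13). Such RNAs lay on 34.9%, 46.4%, 33.6% and 44.0% of long-loop anchors. The GRID-seq lists held 571, 681, 519 and 649 RNAs with 8181721, 9943666, 7172517 and 9381797 RNA reads, and an RNA that is not listed is not shown to be absent.

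The RNAs on the most long-loop anchors were mostly those found all over the genome. The RNA of ENSSSCG00000048037, from chromosome 3, lay on 8.91%, 14.9%, 25.7% and 23.8% of long-loop anchors, and on 8.86%, 16.1%, 23.9% and 21.3% of the others. TTN, the giant sarcomere protein titin, gave 6.45%, 7.64%, 19.7% and 15.5%, so that both MS libraries were above both LW libraries. ENSSSCG00000044834 lay on 4.63%, 4.00%, 5.85% and 6.61% of long-loop anchors, above its shares on the others in each library (3.35%, 3.58%, 4.79% and 3.98%).

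A second kind of RNA stayed on its own chromosome. MBNL1, a splicing regulator of muscle, lay on 4.24%, 6.85%, 4.04% and 5.61% of long-loop anchors and on 2.20%, 3.08%, 0.909% and 1.59% of the others, and 104, 155, 84 and 118 of its 107, 173, 85 and 118 long-loop anchors were on chromosome 13. EYA4, a co-activator in muscle development, lay on 2.10%, 2.45%, 1.52% and 2.61%, against 0.332%, 0.527%, 0.287% and 0.506%. RORA, a nuclear receptor gene, was higher on long-loop anchors in LW replicate 1 and both MS libraries and lower in LW replicate 2 (1.03% against 1.55%). ENSSSCG00000051257, whose gene (chr13:125393533-125401148) covers the BCL6 anchor, lay on 1.39%, 1.90%, 1.71% and 2.71%, against at most 0.0744% of the other anchors. MBNL1 also lies on chromosome 13, and EYA4 and RORA lie on chromosome 1. Chromosome 13 held 429 of 3206 long loops and 10127 of all 122406 loops, and chromosome 1 held 573 and 11777. The part of this uneven spread in the gaps, also in that for RNAs of the anchor's own chromosome, was not tested.

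An RNA from 1 anchor was often listed on the other anchor of the same loop. RNA genes within 10 kb of the other anchor were left out. Of long loops with an RNA gene over an anchor, 145 of 356 (40.7%), 201 of 436 (46.1%), 135 of 362 (37.3%) and 194 of 389 (49.9%) had that RNA on the other anchor. For loops of 100 to under 500 kb the shares were 63.1%, 67.7%, 58.7% and 64.1%. The mean difference was −19.9 ± 3.81 points (SD, n = 4), lower in 4 of 4 libraries with an exact sign-flip permutation p of 0.13. Against loops of 400 to under 500 kb alone, added after the data were seen, the difference was −19.5 ± 3.10 points, again lower in 4 of 4 libraries (exact permutation p = 0.13). The groups differ in distance by construction.

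A place at the same distance was therefore looked at as well, a comparison added after the data were seen. The bin as far away on the other side of the RNA's own anchor held the RNA for 9.26%, 13.1%, 6.72% and 6.33% of pairs of RNA and long loop, whereas the looped anchor held it for 39.4%, 43.8%, 36.0% and 47.2%. The mean difference was 32.8 ± 5.44 points, higher in 4 of 4 libraries (exact sign-flip permutation p = 0.13). Anchors were called from H3K27ac peaks and the mirrored bins were not chosen for that mark, so the mark and the loop cannot be told apart here.

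In all, 69 RNAs were found on the far anchor of a long loop, 29 in both LW libraries, 29 in both MS libraries and 16 in all 4. The RNA of the BCL6 anchor, ENSSSCG00000051257, did so for 20, 25, 17 and 31 of 64 pairs in each library. Its signal, the deposited background-corrected value summed over 1-kb bins, was 9949, 9401, 13930 and 14322 on its own anchor and 983, 702, 862 and 772 on the TPRG1 anchor. QKI RNA lay on the far anchor for 15 of 15 pairs with each LW library and for 16 and 17 of 18 with MS. On its intergenic partner its signal was 189, 438, 452 and 392, against 1249, 1304, 1228 and 1236 on the anchor at QKI.

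PIK3R1 RNA was found for 20 and 21 of 25 pairs in LW and for 26 of 26 in both MS libraries, at 500 to 890 kb. The RNA of ENSSSCG00000006725, over the T-box gene TBX15, was found for 12 of 12 pairs in both LW libraries and 10 of 10 in both MS libraries. TEAD1, a transcription factor of the Hippo pathway active in muscle, was found for 6 of 6 and 8 of 8. FOXO3 RNA was found for 8 and 9 of 9 pairs in LW and 4 and 5 of 6 in MS, FOXO1 for 4 of 4 in LW and 2 of 2 in MS, both being factors of muscle protein breakdown. The pairs of 1 RNA share that RNA and its anchor and are not independent.

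JUN went the other way. Its RNA (ENSSSCG00000031912) led the signal on its own anchor with 38199, 32725, 31121 and 23145, yet it was listed on the far anchor for 0 of 17 pairs in both LW libraries and for 1 and 3 of 19 pairs in the MS libraries. NR4A3 RNA was not in the LW lists. In the MS libraries it was found for 4 of 7 pairs each, and on the intergenic anchor of its strongest loop its signal was 430 and 403, against 1979 and 1435 on its own anchor. SOX6 RNA was listed in LW replicate 2 with 12 of 12 pairs and had no listed pairs in the other libraries, so it rests on that library.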

How the data were processed

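H3K27ac BL-HiChIP loops and GRID-seq lists of the longissimus muscle of LW and MS piglets were used, 4 libraries each. For BL-HiChIP the authors trimmed linkers with ChIA-PET2, mapped reads with BWA-MEM to Sscrofa11.1, filtered them with Pairtools, and called loops per library with FitHiChIP at 5-kb resolution. The value the authors deposited per loop was read as an adjusted p-value (FDR). The submitters' processing notes also name Trim Galore 0.4.5, Bowtie2 2.2.5, SAMtools 1.9 and MACS2 2.1.2, with no role given. For GRID-seq the authors deposited a count of RNA reads per RNA and a background-corrected signal per RNA and 1-kb bin. These lists carry no column names, so both readings rest on the values and the methods.

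Gene positions were those of a RefSeq list for Sscrofa11.1 (27788 gene symbols with a position), which gives no strand. Loops were matched by both anchors. A gene end counted within 1 kb of an anchor. Long loops were compared with shorter ones inside each library, and the 4 differences were tested by exact sign flips. Breeds were compared by exact permutation. The smallest exact permutation p-values possible are 0.33 for breeds and 0.13 for the sign flips. Functions were tested on simulated loops. The members, lists and rules were chosen with earlier results of these data known. Named were genes at the 20 strongest and the 5 longest loops called in all 4 libraries, the 8 genes and 5 anchors with most long loops, the 5 strongest loops of each breed, the 10 RNAs on most long-loop anchors, RNAs found on the far anchor, and members of the gene lists. Further anchors, networks and loops that illustrate a count were named after their values were seen. Alternatives covered FDR, distance limits, tolerance, windows, compared loops, RNAs and leaving out each library. Some genes that the rule names are not reported here. No sequence was analysed here. Python 3.11.15, numpy 2.4.6, pandas 2.3.3, scipy 1.17.1, networkx 3.6.1 and matplotlib 3.10.9 were used.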

Additional observations from a re-analysis of the deposited data

Results flagged for a closer look

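For 3 of the 10 RNAs found on the most long-loop anchors, the gap between long-loop anchors and the other anchors went one way in both LW libraries and the opposite way in both MS libraries. This difference between the breeds was not tested. TTN RNA lay on 6.45% and 7.64% of long-loop anchors in LW, below its 8.46% and 9.55% of the other anchors, and on 19.7% and 15.5% in MS, above its 15.7% and 13.6%. The gap in LW minus that in MS was −4.95 percentage points. NEB RNA, from the gene of the thin-filament protein nebulin, showed the same pattern, with 1.19% and 2.34% against 1.99% and 3.03% in LW and 1.19% and 1.57% against 0.638% and 1.42% in MS, a difference of −1.10 points. ENSSSCG00000048856 went the other way by 0.894 points, with 2.97% and 4.71% against 2.74% and 4.14% in LW. In MS it lay on 6.56% and 13.36% against 7.51% and 13.39%, so MS replicate 2 had almost no gap. Both breeds were measured on their own loops, so the anchors compared are not the same in LW and MS.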

How the results depend on the processing

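Of 82 recomputed values for 11 results, 71 kept the direction of the reported value and 11 reversed. Of the 71, 21 differed from the reported value by more than 1.5 times. With these libraries no test can reach significance, so p-values say nothing about stability. The cause of the changes below was not tested. The breed difference in the share of long loops (−0.0924 percentage points, LW minus MS) became 0.00362 at an FDR of at most 0.001 and 0.0304 for loops of 1 Mb or more, and lay between −0.357 and 0.173 with 1 library left out, 0.173 being without LW replicate 1. The sharing difference (−8.42 points) became 5.89 for loops of a strength above 10 and 0.708 against loops of 400 to under 500 kb, against which the strength difference (−0.55) became 0.00672. Long loops of LW alone fell from 105 to 65 at an FDR of at most 0.001 and rose to 153 with 1 bin of tolerance. The gene density difference (−0.669 per Mb) became 1.34 against loops of 50 to under 500 kb and 1.50 for medians of protein-coding genes. It became 0.930 for all genes over summed lengths. The gene end difference (1.44 points) became −0.135 at an FDR of at most 0.001 and lay between −0.173 and 3.40 with 1 library left out, −0.173 being without LW replicate 2. It was 6.41 points with ends within 5 kb. The number difference of 208.5 loops lay between 46.5 and 370.5 with 1 library left out, the lowest being without MS replicate 2.

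With the replicate number as a block (replicate block), the breed difference in the number of long loops was 208.5 with an exact p of 0.5, and that in the share −0.0924 with an exact permutation p of 1. The block changed no call. Same-numbered libraries deviated together, with r = 0.77 over 4632 loops called in all 4 libraries and 0.88 over the 75 long ones, but the labels do not say what a number shares. The strengths were not adjusted for the number of read pairs of a library.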
